A study of Mus musculus with 6 samples.

Results

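The ADAM, ADAMTS, MMP and TIMP genes encode the zinc metalloproteinases that cut matrix and cell surface proteins, and the inhibitors of these enzymes. They were taken by gene symbol from a table of read counts per gene. The table of 24421 genes held 79 such symbols, and the 51 with at least 15 counts summed over the 6 libraries are described here. Just inside this minimum lay Adam28 (24 counts), and just outside it Adam5 and Mmp21 (13 counts each). Of the 28 symbols left out, 14 had 0 counts, among them the stromelysin genes Mmp3 and Mmp10, and the macrophage elastase gene Mmp12 had 3. The RNA was recorded as that of retinal endothelial cells, isolated at P7 (postnatal day 7) from mouse pups of mixed BL6/CD1 background that had received tamoxifen at P1. Markers of other retinal cells were also read (below). Floxed Smad4 alleles were shared by all pups. Cdh5-CreERT2, which drives a tamoxifen-inducible Cre recombinase in endothelium, was present in the 3 Smad4-iECKO samples and absent from the 3 Smad4f/f samples. Smad4 encodes the mediator shared by the BMP and TGF-beta pathways. Whether each sample is 1 pup or a pool is not in the labels, and the p-values therefore cover no more than the spread seen among these 6 libraries.

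ADAM proteins are membrane-anchored. Several of them shed growth factors, cytokine precursors and Notch receptors from the cell surface, and others lack the catalytic site and act in adhesion. ADAMTS proteins are secreted and cleave proteoglycans, procollagens and other matrix proteins. MMPs degrade collagens and basement membranes, partly while anchored in the membrane, and in sprouting vessels they open a path through the matrix. TIMPs bind the active site of these enzymes and block it.

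What the active enzymes share is a zinc-binding site with 3 histidines and a catalytic glutamate. The site, read as histidine, glutamate, 2 other residues, histidine, 2 others, glycine, asparagine or serine, 2 others, histidine and 1 other, was searched in the reference coding sequences (GENCODE M21, GRCm38), and 42 of the 47 enzyme genes among the members held it, as did 62 of all 75 enzyme genes in the table. The 5 without it were Adam4, Adam11, Adam22, Adam23 and Adam32. The site is shown for the 7 members whose levels did not overlap between the groups. Capitals mark the codons of the 3 histidines and of the glutamate, and each sequence is written 5′ to 3′ on the coding strand.
Adam12: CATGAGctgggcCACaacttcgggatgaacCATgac
Adamts16: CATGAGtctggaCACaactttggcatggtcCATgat
Adam1a: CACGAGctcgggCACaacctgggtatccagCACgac
Adamts7: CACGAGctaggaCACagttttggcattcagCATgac
Adamts5: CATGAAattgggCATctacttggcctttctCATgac
Adamts15: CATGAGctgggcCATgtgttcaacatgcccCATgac
Mmp23: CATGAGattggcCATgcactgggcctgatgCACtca
The last codon encodes aspartate in the ADAM and ADAMTS genes shown and serine in Mmp23, a textbook mark that separates these families. Between the last pair of histidines, 36 members encode glycine, 5 ADAMTS genes including Adamts15 encode asparagine, and Adamts8 encodes serine. In the genome the Adam12 site lies at chr7:133961155-133961190 (minus strand, exon 11), the Adam1a site at chr5:121520086-121520121 (minus strand, exon 1) and the Mmp23 site at chr4:155651525-155651560 (minus strand, exon 5). The 4 ADAMTS sites are each split by an intron. That of Adamts16 spans chr13:70787146-70791812 (minus strand, from exon 8), that of Adamts7 chr9:90179456-90180643 (plus strand, from exon 7), that of Adamts5 chr16:85878012-85887826 (minus strand, from exon 2) and that of Adamts15 chr9:30911252-30911690 (minus strand, from exon 2).

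Depth and makeup differed between libraries. Total counts ran from 12633018 to 23164952 in 5 libraries and reached 2233360 in Smad4-iECKO replicate 2, where a count of 3 corresponds to 1.39 CPM (counts scaled to the size of the library, here by the TMM method). Sample titles begin with Lit38 (2 samples a group) or Lit40 (replicate 2 of each group), called prefix 38 and prefix 40 here. The labels do not say what these letters mark. Smad4 itself ranged from 109.5 to 157.6 CPM in Smad4f/f and from 93.9 to 133.9 CPM in Smad4-iECKO, which does not check the genotype, because a gene count includes exons that remain after deletion. All 14 endothelial markers were detected in every library, and 4 of the 14 had a positive log2 fold change (48.2% of all tested genes did). Their summed level was 6945, 1355 and 4122 CPM in Smad4f/f replicates 1, 2 and 3 and 2349, 4881 and 3815 CPM in Smad4-iECKO replicates 1, 2 and 3. Rod photoreceptor markers summed to 4610, 8799 and 7320 CPM in Smad4f/f and 7010, 5533 and 6546 CPM in Smad4-iECKO. This was above the endothelial sum in every library except Smad4f/f replicate 1. Retinal neuron markers summed to 574.6 to 1075 CPM in Smad4f/f and 528.0 to 1007 CPM in Smad4-iECKO. The libraries thus held RNA of several cell types, and which of them each member's reads came from was not tested. Microglia and macrophage markers summed to 63.1 to 120.5 CPM in Smad4f/f and 123.2 to 178.3 CPM in Smad4-iECKO, without overlap (13 of 15 genes with a positive log2 fold change, C1qa and P2ry12 at 0 in at least 1 library). In bulk RNA, fewer cells of a type and less RNA per cell cannot be told apart.

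The question addressed was which transcripts differ once Smad4 has been deleted in the endothelium. Across the proteinase genes most estimates were positive. The smallest unadjusted p-values were those of Adam12, a membrane sheddase at 3.18 times the Smad4f/f mean, and Adamts16, a secreted matrix proteinase at 2.57 times. Mmp23, with 3 to 23 reads a library, was at 4.85 times. Of the 46 members that passed the low-count filter, 36 had a positive and 10 a negative log2 fold change, with a median of 0.32. Over all 14362 tested genes 48.2% were positive and the median was -0.017. In 7 of the 46 members every Smad4-iECKO library was above every Smad4f/f library, where 2.49% of all tested genes showed this. Mmp23, among the 7, passed the low-count filter only through its Smad4-iECKO libraries. Its place in these counts is thus not independent of its direction. In 0 of the 46 the groups were separated in the other direction, against 2.83% of all tested genes. Microglia and macrophage markers were higher in the same libraries (sums above), and their part in the members' values was not tested. Adam28, Adam21, Adamts13, Mmp8 and Timp4 were not tested because of low counts.

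No member passed the test. By edgeR's quasi-likelihood test with Benjamini-Hochberg adjustment over all 14362 genes, 0 of 46 members were called (0% of all tested genes were), and the smallest adjusted p among members was 0.9999. An unadjusted p under 0.05 was reached by 3 members (Adam12, Adamts16 and Mmp23), against 1.31% (188) of all tested genes. Mmp23 was tested only because of its Smad4-iECKO libraries, so its p is not independent of the low-count filter. With DESeq2 0 of 51 members were called (0.0707% of genes with an adjusted p). With limma-voom and sample quality weights 1 of 46 was called, Adam12 (0.0557% of all tested genes).

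**Figure D1:**
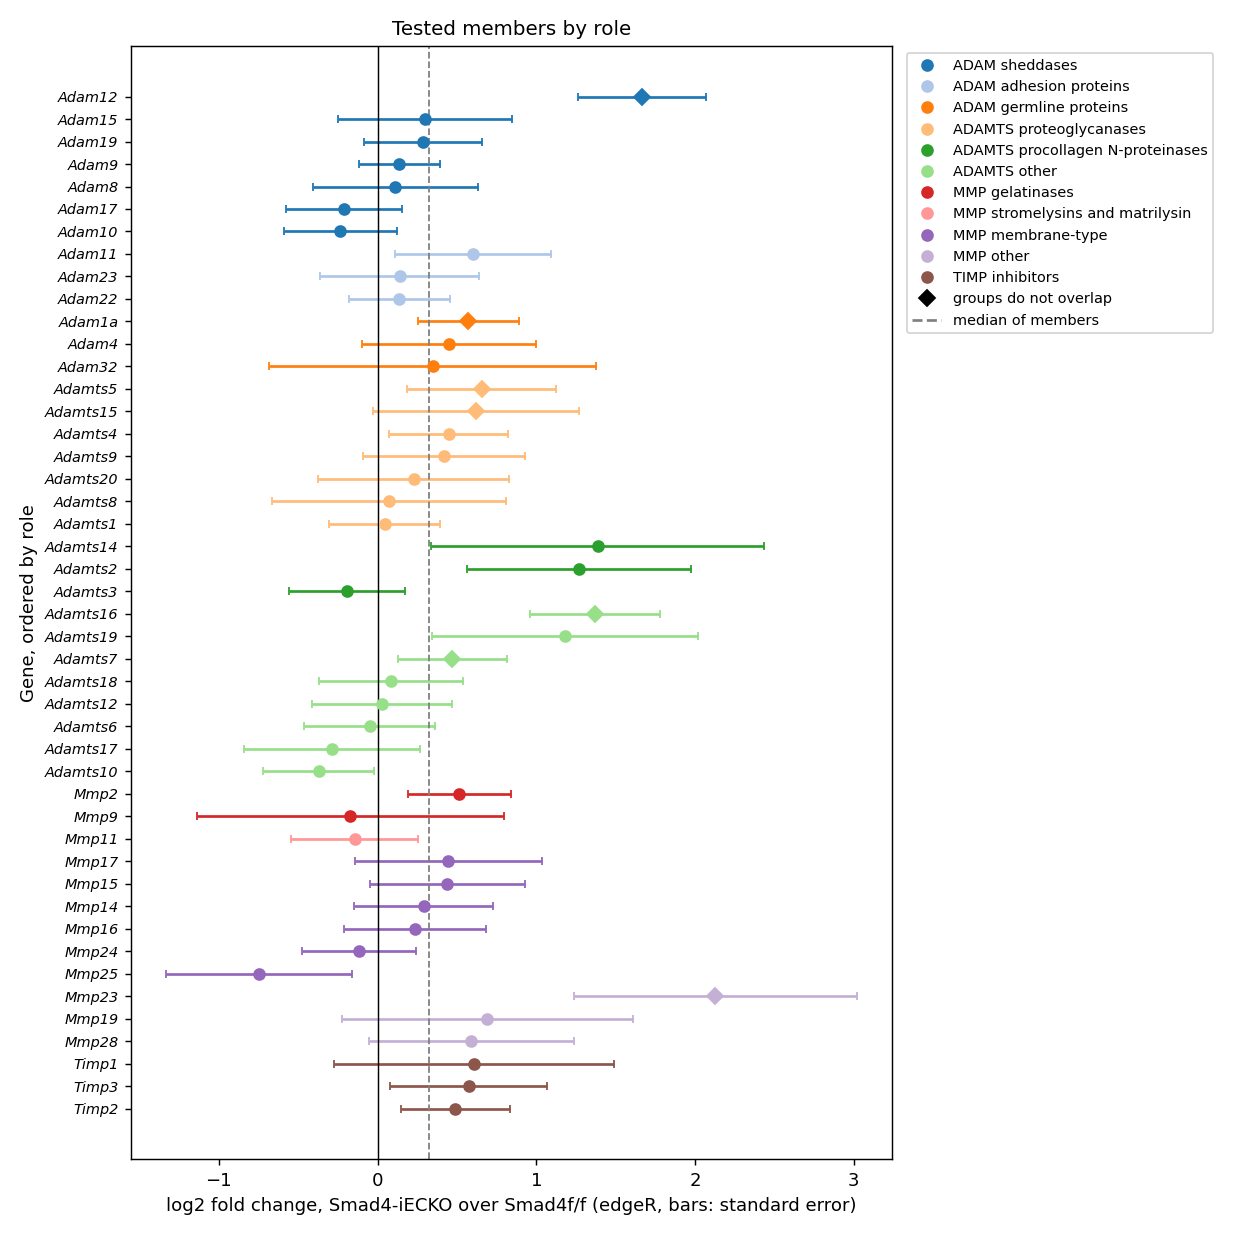
Log2 fold change (Smad4-iECKO over Smad4f/f, edgeR, horizontal axis) with its standard error for the 46 tested members, grouped by role on the vertical axis. Diamonds mark the 7 members whose groups did not overlap, all to the right of 0, and the dashed line is the median of 0.32.

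The positive balance was seen in the pair of libraries with title prefix 40 and not within prefix 38. In that pair (1 library a group, no test) the log2 ratio was above 0 in 34 of 46 members, against 48.4% of all tested genes, with a median of 0.86 against -0.055. In the 4 libraries with prefix 38 (2 a group) the log2 fold change was above 0 in 22 of 48 members, against 48.9% of all genes tested there, with a median of -0.037. Over the 46 members the prefix 38 median was -0.020, and over all 14362 genes it was -0.011. The endothelial sum differed within the prefix 40 pair, at 1355 CPM in the Smad4f/f and 4881 CPM in the Smad4-iECKO library. In the same 2 libraries the listed fibroblast markers summed to 122.7 and 840.4 CPM, although Dcn, Lum and Dpt were at 0 in both. The sums were 624.8 and 2067 CPM for pericytes and smooth muscle, 907.4 and 2128 CPM for Mueller glia and 43.1 and 106.0 CPM for astrocytes. The part of any of these in the members' ratios was not tested. In prefix 38 alone 11 of the 46 members were higher without overlap and 5 lower (Adam8, Adamts10, Mmp15, Mmp25 and Mmp28), where 16.2% and 14.9% of all tested genes were. By construction the 11 include the 7 members that separated the groups over all libraries.

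**Figure D2:**
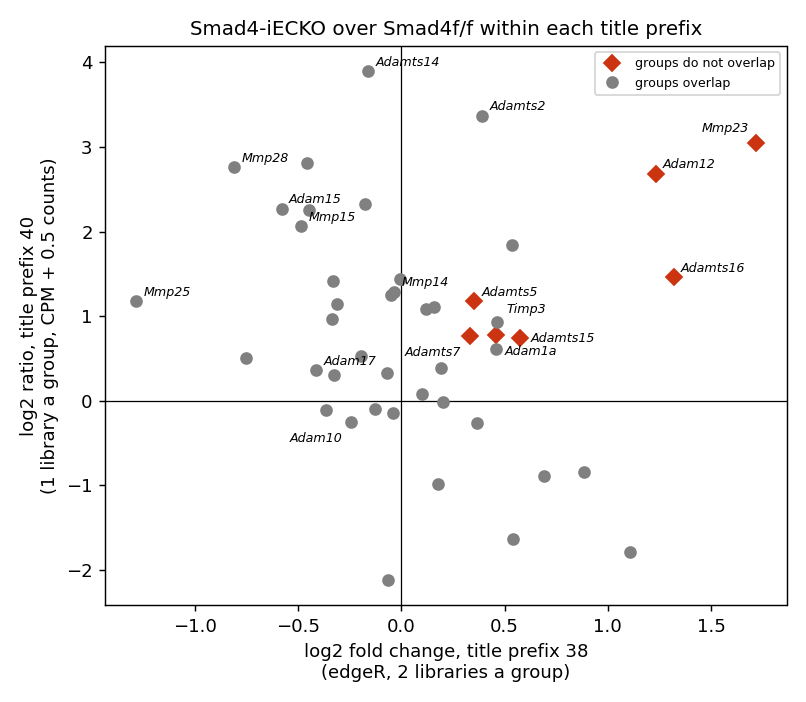
Log2 fold change within title prefix 38 (horizontal axis, edgeR, 2 libraries a group) against the log2 ratio of the prefix 40 pair (vertical axis, 1 library a group) for the 46 tested members. The 7 members whose groups did not overlap (red diamonds) lie above 0 on both axes, a position that their non-overlap nearly fixes in advance. Mmp28, Mmp15, Mmp25 and Adam15 lie below 0 in prefix 38 and above 0 in prefix 40.

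Among the ADAM sheddases, Adam12 alone of 7 tested genes separated the groups. Adam12 (chromosome 7, 133883199 to 134232146, mm10) encodes a meltrin known for shedding EGF receptor ligands. It was at 40.1, 15.3 and 22.1 CPM in Smad4f/f replicates 1, 2 and 3 and at 65.9, 98.1 and 82.1 CPM in Smad4-iECKO replicates 1, 2 and 3. The lowest Smad4-iECKO library was thus above the highest Smad4f/f library. Means with SD over 3 libraries were 25.8 ± 12.9 and 82.0 ± 16.1 CPM. The edgeR log2 fold change was 1.67 (standard error 0.40, unadjusted p = 0.00245, adjusted p = 0.9999). The estimate was 1.23 in prefix 38, and the log2 ratio of the prefix 40 pair was 2.69. Over the other settings the log2 fold change stayed between 1.23 and 2.13 and the adjusted p between 0.0431 (limma-voom with sample quality weights) and 1. DESeq2 gave 0.18 as its adjusted p.

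The other sheddase genes overlapped between the groups. Adam10 and Adam17 encode the main sheddases of Notch receptors and of TNF and EGF receptor ligands. Adam10 had the highest level per exon length of all members, at 51.6 in Smad4f/f and 43.8 CPM per kilobase in Smad4-iECKO (group means). It stood at 286.6, 175.8 and 297.7 CPM in Smad4f/f and at 209.1, 146.9 and 289.0 CPM in Smad4-iECKO, a log2 fold change of -0.23 (standard error 0.35). For Adam17 the values were 117.4, 47.0 and 72.4 CPM against 65.6, 60.0 and 78.7 CPM (log2 fold change -0.21, standard error 0.37). Adam9, a widely expressed sheddase, varied little between libraries, at 152.6 ± 10.9 against 167.8 ± 11.2 CPM. Adam15, a sheddase with an integrin-binding motif that is abundant in endothelium, ran from 44.7 to 187.0 CPM in Smad4f/f and from 72.0 to 215.2 CPM in Smad4-iECKO, lowest and highest in the prefix 40 pair. Its log2 fold change was -0.58 in prefix 38, where the pooled estimate was 0.30, and 20.6% of its exon bases are shared with an antisense gene. Adam19, a sheddase of neuregulins, was at 44.5 ± 18.5 against 54.3 ± 2.79 CPM, and Adam8, a leukocyte sheddase, at 5.50 ± 0.775 against 6.11 ± 2.59 CPM.

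The ADAM genes with roles in adhesion or in germ cells overlapped between the groups, with 1 exception. Adam11, Adam22 and Adam23 encode surface proteins of neurons that bind LGI proteins. Adam22 was at 89.0 ± 27.7 against 97.9 ± 11.7 CPM and Adam23 at 27.8 ± 8.10 against 31.2 ± 20.1 CPM. Adam11 reached 212.0 CPM in Smad4-iECKO replicate 2 and lay between 49.9 and 100.1 CPM in the other 5 libraries. Adam1a, related to a sperm surface protein, was the exception, at 16.5, 19.9 and 22.4 CPM against 29.1, 33.9 and 24.8 CPM (log2 fold change 0.57, standard error 0.32, edgeR unadjusted p = 0.104). The groups did not overlap, but the assignment of its reads is uncertain. In GENCODE M21, 99.0% of its exon bases are shared with other annotated exons, the largest overlap being with Gm42878 on the same strand. The 36 bases of its zinc site are identical in Adam1b, which had 2 reads in all. Adam4, another germline member, was at 7.74 ± 1.22 against 10.2 ± 6.12 CPM.

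**Figure D3:**
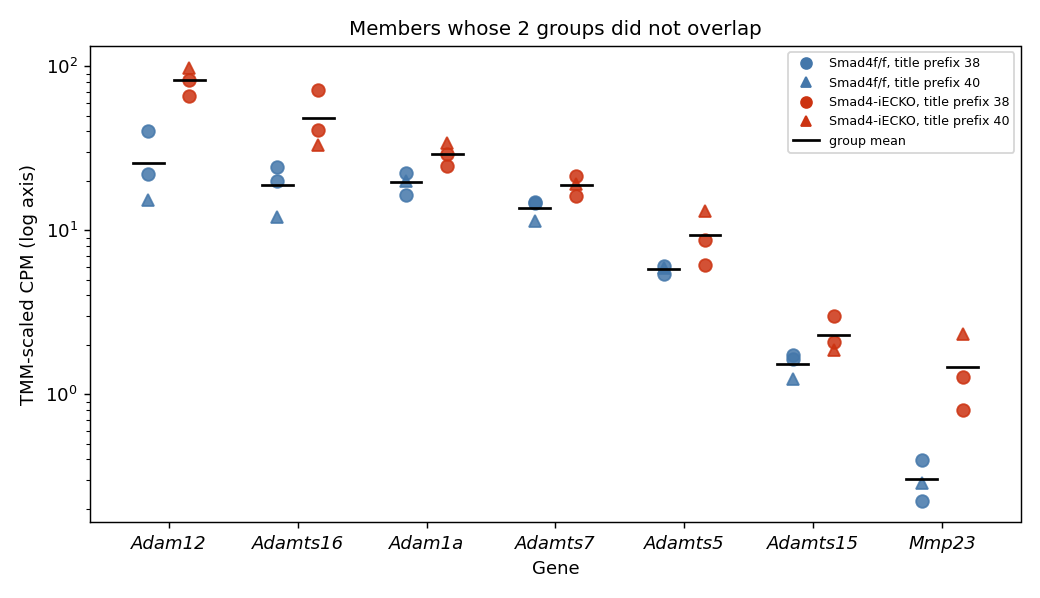
TMM-scaled CPM (vertical log axis) of the 7 members whose groups did not overlap, by library, with bars at the group means (n = 3 each). Adam12 showed the widest absolute gap, from 40.1 CPM in the highest Smad4f/f library to 65.9 CPM in the lowest Smad4-iECKO library, and Mmp23 lay at or below 2.32 CPM throughout.

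In the ADAMTS family 14 of 18 tested genes had a positive log2 fold change (median 0.32), against 48.2% of all tested genes. In 4 of the 18 the Smad4-iECKO libraries were all higher, against 2.49% of all tested genes. The family median was 0.047 within prefix 38 and 0.96 in the prefix 40 pair. Adamts16 (chromosome 13, 70727802 to 70841811, mm10), a proteinase known from kidney and gonads, was at 20.03, 12.1 and 24.3 CPM in Smad4f/f and at 40.8, 33.0 and 71.2 CPM in Smad4-iECKO. Each Smad4-iECKO library exceeded the highest Smad4f/f value. Its means were 18.8 ± 6.22 and 48.3 ± 20.2 CPM, and the edgeR log2 fold change was 1.37 (standard error 0.41, unadjusted p = 0.00854, adjusted p = 0.9999). Prefix 38 gave 1.32 and the prefix 40 pair 1.46, so the values were similar within both prefixes. Without Smad4-iECKO replicate 3, the highest library for Adamts16 and for the summed astrocyte markers (309.1 CPM), the estimate was 0.975. The part of astrocytes in the Adamts16 values was not tested. Adamts7, which cleaves cartilage oligomeric matrix protein, was at 14.8, 11.3 and 14.6 CPM against 16.1, 19.1 and 21.4 CPM, a small but complete separation (log2 fold change 0.47, standard error 0.34). Adamts19 ranged from 1.03 to 3.17 CPM in Smad4f/f, and in Smad4-iECKO it was at 3.28 and 1.59 CPM in replicates 1 and 3 and 11.2 CPM in the shallow replicate 2. Adamts10, which acts on fibrillin microfibrils, had 101.6 ± 42.1 against 78.7 ± 12.01 CPM, and Adamts12 28.3 ± 14.4 against 28.7 ± 4.33 CPM.

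The proteoglycanases of the ADAMTS family cleave aggrecan, versican and related proteins. All 7 had positive estimates (median 0.42), against 48.2% of all tested genes. Their median was -0.0055 within prefix 38 and 1.18 in the prefix 40 pair. None was called. Adamts5 was at 5.44, 5.84 and 6.06 CPM in Smad4f/f and at 6.11, 13.0 and 8.77 CPM in Smad4-iECKO, so that the closest libraries of the 2 groups were at 6.06 and 6.11 CPM. For Adamts15 the values were 1.73, 1.23 and 1.65 CPM against 2.999, 1.86 and 2.07 CPM, the second of these from 4 reads. Adamts1 and Adamts9, expressed in developing vessels, overlapped. Adamts1 was at 61.8 ± 22.3 against 63.6 ± 15.1 CPM. Adamts9 was at 89.7, 19.0 and 68.0 CPM against 57.3, 95.3 and 84.0 CPM, lowest in Smad4f/f replicate 2. Adamts4 was at 21.0 ± 6.40 against 28.8 ± 7.71 CPM.

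Of the procollagen N-proteinases, which remove the amino-terminal propeptides of fibrillar collagens, Adamts2 was at 13.5, 2.39 and 3.29 CPM in Smad4f/f and at 10.1, 24.6 and 12.3 CPM in Smad4-iECKO. The estimate was 1.27 (log2, standard error 0.71, edgeR unadjusted p = 0.106), 0.39 in prefix 38 and 3.37 in the prefix 40 pair. Adamts14 was sparse, with 9 to 19 reads a library, and lay at or below 1.498 CPM in all libraries but Smad4-iECKO replicate 2, where it reached 5.58 CPM. Both genes were highest in this library, and so was the summed level of 9 listed fibroblast markers, at 122.7 to 538.6 CPM in Smad4f/f and 349.6 to 840.4 CPM in Smad4-iECKO. The largest values of that list in Smad4-iECKO replicate 2 were those of Col3a1 (392.3 CPM) and Col1a2 (294.7 CPM). Of the 6 tested fibroblast markers 4 had positive estimates (48.2% of all tested genes did). Without overlap 2 were higher, Col1a1 and Col1a2 (2.49% of all tested genes were). Lum and Dpt were at 0 in every library, and Dcn was at 0.237 CPM in Smad4f/f replicate 1 and at 0 in the other 5. With these markers at or near 0, the list is not taken to identify fibroblasts. The part of the cells that express its genes was not tested. Adamts3, which processes the lymphatic growth factor VEGF-C, went the other way, at 64.7 ± 23.0 against 56.4 ± 14.2 CPM (log2 fold change -0.19, standard error 0.36).

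In the MMP family 8 of 12 tested genes were positive (median 0.36), against 48.2% of all tested genes. Only the sparse Mmp23 separated the groups, where 2.49% of all tested genes were higher without overlap. The family median was -0.098 within prefix 38 and 0.89 in the prefix 40 pair. Per exon length, Mmp14 stood at 14.4 CPM per kilobase in Smad4f/f and 17.5 in Smad4-iECKO, and Mmp28 at 13.8 and 21.1 (group means), the last of these raised by Smad4-iECKO replicate 2. Of the membrane-type enzymes, Mmp14, which activates the gelatinase MMP2 and degrades fibrillar collagen at the tips of sprouts, was at 140.3, 41.0 and 75.4 CPM in Smad4f/f and at 82.6, 99.9 and 130.9 CPM in Smad4-iECKO. Its log2 fold change was 0.29 (standard error 0.44), and -0.034 within prefix 38. Mmp15, a related membrane enzyme, was at 92.5, 45.2 and 105.2 CPM against 57.1, 188.7 and 85.6 CPM. The highest value, in Smad4-iECKO replicate 2, carried the mean: in prefix 38 the log2 fold change was -0.49. Mmp25, a leukocyte enzyme held by a lipid anchor, had the most negative estimate of all 46 members, at 26.6, 6.25 and 29.1 CPM against 7.39, 13.9 and 15.8 CPM (log2 fold change -0.75, standard error 0.59). Within prefix 38 its estimate was -1.28, and in the prefix 40 pair it was 1.18. Mmp24, a neural membrane enzyme, was at 31.8 ± 12.2 against 29.4 ± 1.40 CPM.

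The secreted MMPs were unevenly expressed. Mmp2, the gelatinase that cleaves collagen IV, was at 22.6, 32.5 and 29.5 CPM in Smad4f/f and at 29.3, 49.3 and 43.1 CPM in Smad4-iECKO (log2 fold change 0.52, standard error 0.33, edgeR unadjusted p = 0.149). A single Smad4-iECKO library fell within the Smad4f/f range. Mmp9, the gelatinase of neutrophils and macrophages, stayed between 0 and 2.92 CPM in all libraries, while the microglia and macrophage markers summed higher in Smad4-iECKO. The part of those cells in the leukocyte genes Mmp9, Mmp25 and Adam8 was not tested. Mmp28, known as epilysin, was at 67.6, 24.6 and 68.5 CPM against 28.5, 166.4 and 49.9 CPM, with the lowest and the highest value both in the prefix 40 pair, and in prefix 38 its log2 fold change was -0.81. Mmp11, a furin-activated enzyme of stromal cells, was at 11.6 ± 2.80 against 10.5 ± 1.89 CPM. Mmp23 was at 0.394, 0.288 and 0.224 CPM in Smad4f/f (5, 7 and 3 reads) and at 1.28, 2.32 and 0.797 CPM in Smad4-iECKO (23, 5 and 10 reads). The estimate was 2.13 (log2, standard error 0.89, edgeR unadjusted p = 0.0410, adjusted p = 0.9999). Its Smad4f/f libraries alone would not have passed the low-count filter, which ties the direction to the filter. Of the collagenase genes only Mmp8 reached the minimum of 15 counts, with 22 of its 32 reads in Smad4-iECKO replicate 3.

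In the pooled estimates the inhibitors leaned the same way as the enzymes. All 3 tested TIMP genes had positive estimates (0.49 to 0.61), against 48.2% of all tested genes, and each overlapped between the groups. Their median was 0.16 within prefix 38, where Timp1 was at -0.46, and 1.11 in the prefix 40 pair. Timp2, which also takes part in MMP2 activation, was at 35.3, 29.1 and 40.8 CPM against 31.5, 62.8 and 54.3 CPM (log2 fold change 0.49, standard error 0.34). Timp3, the matrix-bound inhibitor of ADAM and ADAMTS enzymes, mutated in Sorsby fundus dystrophy, was at 90.0, 29.3 and 53.8 CPM against 60.5, 55.8 and 140.4 CPM. Its Smad4-iECKO replicate 3 was the highest library, and without it the log2 fold change was close to 0 (0.015). Astrocyte markers also summed highest there, at 309.1 CPM, against 113.7 and 106.0 CPM in Smad4-iECKO replicates 1 and 2. In Smad4f/f they summed to 36.1 to 152.1 CPM. The part of astrocytes in the Timp3 values was not tested. Timp3 shares 21.3% of its exon bases with Syn3 on the opposite strand, and the library kit named in the labels (TruSeq RNA v2) does not mark strand, so reads in that shared stretch cannot be told apart between the 2 genes. Timp1, an inhibitor induced in inflammation, ran from 1.12 to 7.57 CPM in Smad4f/f and from 2.79 to 9.76 CPM in Smad4-iECKO. Timp4 was at 2.76, 0.494 and 0 CPM against 0.222, 0 and 1.20 CPM. Per exon length, the summed TIMP level divided by the summed MMP level of the same library was 0.355, 0.268 and 0.223 for the Smad4f/f libraries against 0.336, 0.264 and 0.428 for those of Smad4-iECKO, so the balance of inhibitors to MMPs overlapped too.

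The tested members not yet given by value (Adam32, Adamts6, Adamts8, Adamts17, Adamts18, Adamts20, Mmp16, Mmp17 and Mmp19) had log2 fold changes between -0.29 (Adamts17) and 0.69 (Mmp19). Their groups all overlapped.

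**Figure D4:**
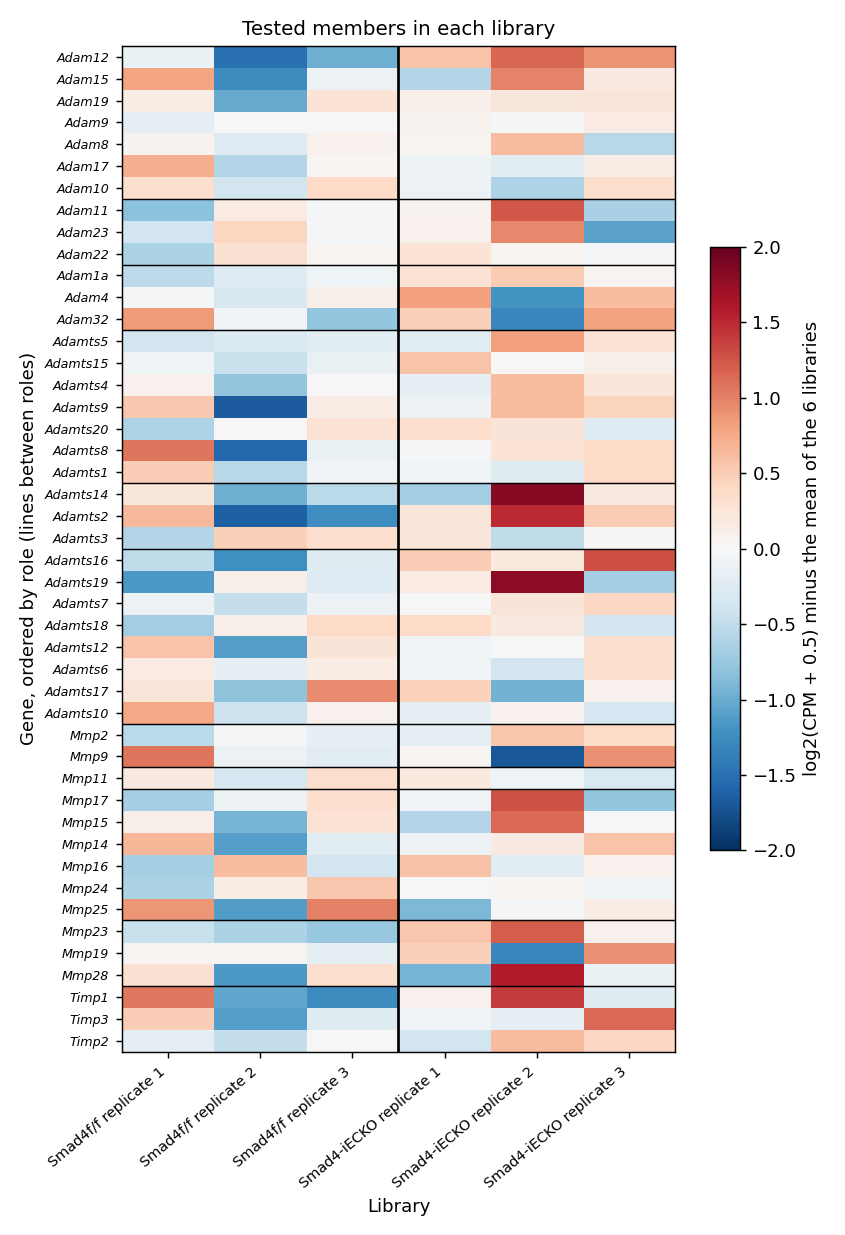
Log2(CPM + 0.5) of the 46 tested members (rows, by role) in each of the 6 libraries (columns), minus the mean of the 6, from blue (lower) to red (higher). Smad4f/f replicate 2 was the lowest library for 22 members and Smad4-iECKO replicate 2 the highest for 19.

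The libraries of the prefix 40 pair marked the ends of the range for many members. Smad4f/f replicate 2 was the lowest of the 6 libraries in 22 of 46 members, where it was lowest in 16.5% of all tested genes. Smad4-iECKO replicate 2 was the highest in 19, where it was highest in 31% of all tested genes. Levels were therefore also divided by the endothelial sum of the same library. On that scale Adam12, Adamts2 and Adamts9 were higher in all 3 Smad4-iECKO libraries without overlap, 3 of 46 members against 1.85% of all tested genes, and 0 members were lower without overlap (0.884% of genes). Adam12 was at 5.78, 11.3 and 5.35 CPM per 1000 endothelial CPM in Smad4f/f and at 28.0, 20.1 and 21.5 in Smad4-iECKO. Adamts9 was at 12.9, 14.0 and 16.5 against 24.4, 19.5 and 22.0, and Adamts2 at 1.94, 1.76 and 0.799 against 4.28, 5.05 and 3.22. By CPM the groups overlapped for both genes, and within prefix 38 the log2 fold change of Adamts9 was -0.18. Their separation thus rests partly on the endothelial sums, and 4 of the 14 markers in these had positive estimates. What the ratio means for a gene expressed in other cells was not tested. Adamts16 overlapped on this scale, at 2.88, 8.90 and 5.90 against 17.4, 6.76 and 18.7. Adam1a, Adamts7, Adamts5, Adamts15 and Mmp23 overlapped as well.

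**Figure D5:**
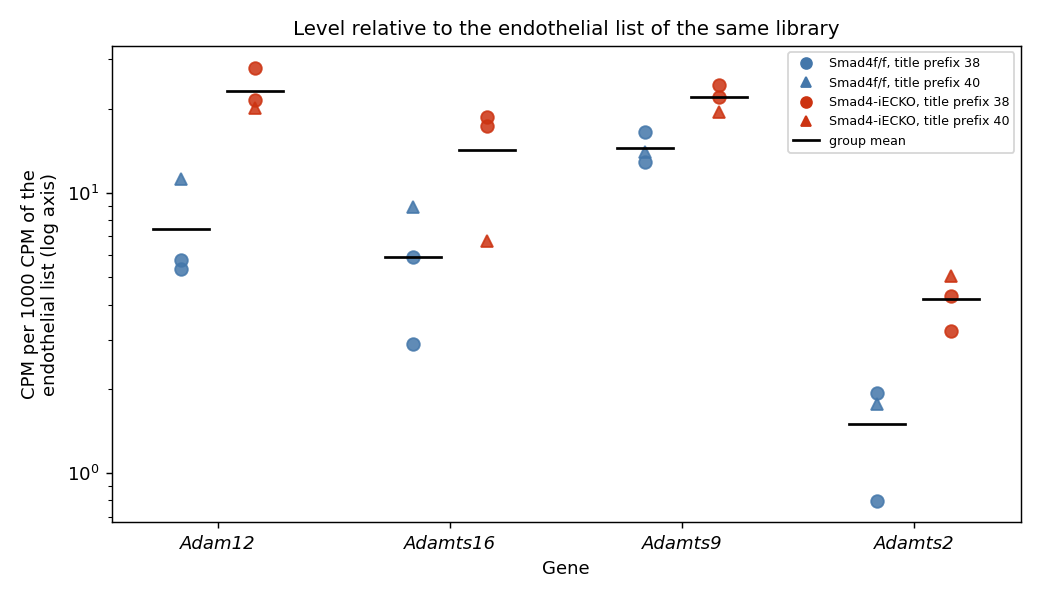
CPM per 1000 CPM of the summed endothelial markers in the same library (vertical log axis) for 4 genes, with bars at the group means (n = 3 each). Adam12, Adamts9 and Adamts2 separate the groups, while the Smad4-iECKO library of prefix 40 lies among the Smad4f/f libraries for Adamts16 (6.76 against 2.88 to 8.90).

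Other genes of the proteolytic network showed no calls in any of 7 lists. Of the matrix substrates 12 of 14 tested genes had positive estimates (median 0.84), against 48.2% of all tested genes. The median of this list was 0.15 within prefix 38 and 2.32 in the prefix 40 pair. In 3 of the 14 the Smad4-iECKO libraries were all higher (2.49% of all tested genes) and in 1 all lower (2.83%). The lower gene was Comp, a cartilage matrix protein, at 0.788, 0.864 and 1.35 CPM in Smad4f/f and 0.778, 0 and 0.478 CPM in Smad4-iECKO. Its 0 came from Smad4-iECKO replicate 2, where a count of 3 corresponds to 1.39 CPM, above every Comp value. The closest libraries of the 2 groups were at 0.788 and 0.778 CPM. Fbn2, a fibrillin of developing tissue, was at 28.2, 27.0 and 38.2 CPM in Smad4f/f and at 50.3, 76.2 and 50.4 CPM in Smad4-iECKO, without overlap. The collagen I gene Col1a2 was at 26.2, 17.4 and 25.4 CPM against 44.0, 294.7 and 50.8 CPM. Col1a1 was separated too, at 4.79 ± 2.26 against 19.3 ± 18.3 CPM, whereas Col4a2 overlapped, at 1574 ± 899 against 5383 ± 4787 CPM. Of 7 ADAMTS-like genes 5 were positive (median 0.66, and -0.30 within prefix 38). Of 7 other metalloendopeptidase genes 6 were positive (median 0.24, and -0.13 within prefix 38), with Bmp1, the procollagen C-proteinase, at 119.2 ± 36.1 against 138.4 ± 27.4 CPM.

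In the list of activators and other inhibitors 6 of 13 were positive (median -0.069, and -0.26 within prefix 38). Spock2, a secreted matrix proteoglycan, had the smallest p of the list, at 1505, 254.3 and 1245 CPM in Smad4f/f and 140.7, 365.4 and 187.5 CPM in Smad4-iECKO (log2 fold change -2.12, standard error 0.65, edgeR unadjusted p = 0.00974). Its groups overlapped, and the log2 ratio of the prefix 40 pair was 0.52. Pcsk6, a proprotein convertase, was at 13.7 ± 4.28 CPM in Smad4f/f and 29.4 ± 8.82 CPM in Smad4-iECKO, without overlap (log2 fold change 1.10, standard error 0.40, edgeR unadjusted p = 0.0234). Bsg, which encodes the MMP inducer basigin of barrier endothelium, was at 637.2 ± 455.9 against 278.2 ± 47.2 CPM. The plasminogen activation list was positive in 5 of 9 genes (median 0.15, and -0.050 within prefix 38), with the urokinase gene Plau at 3.15, 0.658 and 3.29 CPM in Smad4f/f and at 8.72, 3.25 and 9.49 CPM in Smad4-iECKO, where the lowest value came from 7 reads. Plgrkt, a plasminogen receptor gene, was separated downwards (2.83% of all tested genes were), at 18.2 ± 1.52 against 13.3 ± 4.69 CPM (edgeR unadjusted p = 0.297). Its closest libraries of the 2 groups were at 16.8 and 16.2 CPM, and its lowest value, 7.90 CPM in Smad4-iECKO replicate 2, came from 17 reads. Partners of ADAM10 and ADAM17 were positive in 4 of 8 genes (median 0.010, and -0.33 within prefix 38), and substrates shed from the membrane in 8 of 17 (median -0.022, and -0.55 within prefix 38). Dll4, a Notch ligand, was at 80.4 ± 28.8 against 134.7 ± 54.8 CPM, and Tek, the TIE2 receptor, at 275.6 ± 201.9 against 108.0 ± 33.4 CPM.

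The authors' deposited table tested the same groups, and in it 11 of the 44 members with an adjusted p were under 0.05, against 13.4% of all its genes. All 11 were higher in Smad4-iECKO (7.7% of genes) and 0 lower (5.69%). By the smallest p in the authors' deposited table these were led by Adam12 (log2 fold change 1.52, adjusted p = 1.38e-11), Adamts16 (1.25, adjusted p = 5.76e-08), Adam1a (0.54, adjusted p = 3.21e-06), Adamts7 (0.47, adjusted p = 0.000464) and Adamts15 (0.67, adjusted p = 0.00378). Mmp23 stood there at 1.64 with no adjusted p in the authors' deposited table. The count table held 3 identical columns per sample. With all 18 columns entered in DESeq2, 11 of 51 members were called (12.1% of genes), and with 1 column per sample 0 were.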

How the data were processed

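RNA sequencing libraries (TruSeq RNA v2, per the labels) of 6 samples were analysed. The deposited table holds raw counts per gene. STAR, DESeq2 and the mm10 build are named in the submitters' processing notes; no counter, annotation or version is named in the sources used here. A second deposited table holds the authors' mean normalized count (a signal), log2 fold change, Wald score and p-value with its adjusted p-value for each gene. The count table has 18 columns, 3 per sample with identical values in all genes, so 1 column per sample was used.

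Counts were tested with edgeR 4.0.16 (TMM, filterByExpr with a minimum count of 10 and a minimum total of 15, quasi-likelihood F-test, Benjamini-Hochberg adjustment, threshold 0.05) in R 4.3.3, over all genes, on Smad4-iECKO against Smad4f/f. Replicate numbers were given in accession order within a group and pair no samples. DESeq2 1.42.0, limma 3.58.1, other size factors, no filter, a block by title prefix, prefix 38 alone, scaling to endothelial markers and leaving out each sample were alternatives. Non-overlap counts under left-out libraries and other scalings were added after seeing the data. CPM per kilobase used union exon lengths from GENCODE M21, and zinc sites were searched in its coding sequences. On simulated data the edgeR step recovered 0, 32, 49 and 50 of 50 genes changed 2-, 4-, 8- and 16-fold, with 5 false calls (14126 genes). DESeq2 recovered 3, 43, 50 and 50, with 44 false calls (14362 genes). The changed genes were drawn only from genes with many reads, so recovery of sparse members such as Mmp23 was not simulated.

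The members and lists were chosen with earlier results of these data known. Named are all Timps; in each role the members at 20 CPM or more and the 2 with the smallest p; members whose groups did not overlap; the 5 members with the smallest p in the deposited table; and up to 4 genes per pathway list. Others were named after their values were seen. Figures were drawn with matplotlib 3.10.9.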

Additional observations from a re-analysis of the deposited data

How the results depend on the processing

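The call count was 0 genes and 0 members with edgeR under RLE size factors, no filter, the replicate block by title prefix (median of the members 0.318), endothelial scaling, prefix 38 alone and each left-out library. DESeq2 called 12 genes, limma-voom with quality weights 8 genes and 1 member, and DESeq2 on all 18 columns, which counts each sample 3 times, 2235 genes and 11 members. The members' median was between 0.146 (without Smad4-iECKO replicate 2) and 0.437 (without Smad4f/f replicate 1) when 1 library was left out, 0.208 without Smad4f/f replicate 2, and -0.0365 in prefix 38 alone. Between 29 and 38 members were positive without 1 library, and 22 of 48 in prefix 38 alone. Non-overlapping higher members numbered 7 to 12 without 1 library (12 without Smad4f/f replicate 1), where 5.77% to 7.51% of all genes were higher without overlap, 11 in prefix 38 alone and 3 after division by the endothelial sum. Lower without overlap were 2 members without Smad4f/f replicate 1 (Adamts3 and Mmp24; 7.52% of all genes) and 2 without Smad4f/f replicate 2 (Adamts10 and Mmp25; 8.21%), and 0 without any other library. Fewer libraries widen such counts by construction.

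Of 36 named members with alternatives, 16 kept their sign in all of them, Adam12, Adamts16 and Mmp23 among these. For the others the sign differed, and the cause was not tested. In prefix 38 alone the log2 fold change was -0.196 for Adam23, -0.05 for Adam19, -0.579 for Adam15, -0.312 for Adamts12, -0.162 for Adamts14, 0.177 for Adamts3, -0.00555 for Adamts4, -0.176 for Adamts9, -0.0684 for Adamts1, -0.485 for Mmp15, -0.0335 for Mmp14, -0.811 for Mmp28 and -0.456 for Timp1. With limma-voom it was -0.152 for Adam11, -0.445 for Adam23, 0.0543 for Adam17, 0.575 for Mmp9, -0.278 for Mmp15 and -0.503 for Mmp28. With endothelial scaling it was -0.333 for Adam22, -0.403 for Adam23 and -0.192 for Adam9. With 1 library left out the estimates ran from -0.0939 to 0.344 for Adam22, -0.461 to 0.516 for Adam23, -0.48 to 0.188 for Adam17, -1.04 to 0.562 for Mmp9, -0.0262 to 0.513 for Adam19, -0.206 to 0.904 for Adam15, -0.339 to 0.366 for Adamts12, -0.462 to 0.00587 for Adamts3, -0.00793 to 0.85 for Adamts9, -0.179 to 0.348 for Adamts1, -0.0482 to 0.84 for Mmp14, -0.383 to 0.169 for Mmp24, -0.331 to 0.00368 for Mmp11, -0.101 to 0.928 for Adam11, -0.203 to 0.749 for Mmp15, -0.469 to 0.999 for Mmp28 and -0.0816 to 2 for Timp1. Depth limits Smad4-iECKO replicate 2, where genes under 1.39 CPM rest on fewer than 3 reads.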
